A study of Mus musculus with 2 samples.

Results

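The 46 genes described here encode the core of Wnt signalling in mouse: 19 Wnt ligands, 2 proteins that prepare ligands for secretion, 10 Frizzled receptors, 2 LRP coreceptors, 3 Dishevelled transducers, 5 proteins of the destruction complex, beta-catenin and 4 TCF/LEF transcription factors. The rule was a list of gene symbols and used no level, and each was found once among the 55421 Ensembl gene identifiers of the deposited table by its GENCODE M21 symbol (build GRCm38). The data were read counts per gene from polyadenylated RNA of E14 embryonic stem (ES) cells, a mouse line from the blastocyst. Both libraries, called KO1 and KO2 here, carried the Ago1 knockout on a 129/Ola background and were grown in serum with leukaemia inhibitory factor on gelatin. They form 1 group of 2 libraries, so levels and the spread between libraries can be given but no comparison with unedited cells. The labels do not say whether the libraries came from separate clones or cultures, so that spread may be technical.

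Wnt proteins are secreted, lipid-modified signals that bind a Frizzled receptor together with an LRP coreceptor. Without a Wnt, the destruction complex of Axin, Apc and Gsk3 marks beta-catenin for degradation. With a Wnt bound, Dishevelled and Axin are drawn to the membrane, beta-catenin accumulates, enters the nucleus and acts through TCF/LEF proteins. In mouse ES cells this pathway is known to favour self-renewal, in part by relieving repression by Tcf7l1.

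The libraries held 57048330 counts (KO1) and 54408708 counts (KO2). Counts were scaled to counts per 1000000 (CPM) with TMM factors, and levels were compared between genes as CPM per kb of exonic length. A count of 0 allowed a level of up to 0.0528 CPM in KO1 and 0.0549 CPM in KO2, taking 3 counts as the limit. All intervals and limits cover counting error only. Ago1 itself had 26.4 CPM in KO1 and 8.27 CPM in KO2, a ratio of 3.18, so reads of the targeted gene were present in both libraries. Which exons were removed is not stated in the labels, so these reads check neither label. All 5 ES cell markers were detected, from Pou5f1 at 434 ± 122 CPM per kb to Esrrb at 111 ± 14.3 CPM per kb (SD, n = 2). Of 7 fibroblast markers, which would mark feeder cells, only Thy1 was detected, and Postn and Lum had 0 counts in both libraries. In bulk RNA, fewer cells of a type and less RNA per cell cannot be told apart.

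Transcripts of the receiving side of the pathway were present at every step, while most ligand transcripts had reads but lay below 1 CPM in at least 1 library. A gene was called detected at 1 CPM or more in both libraries. By this rule 27 of the 46 genes (58.7%) were detected, against 24.1% of all genes in the table and 55.3% of protein-coding genes. The share over the whole list was thus close to that of protein-coding genes in general. Within the list the classes differed: 2 of 19 ligands (10.5%) were detected, against 25 of the 27 other genes (92.6%). The rule does not scale to length. Wls passed it at 0.219 CPM per kb, whereas Wnt8a missed it at 0.515 CPM per kb. The summed level of all 46 genes was 378 CPM per kb in KO1 and 400.1 CPM per kb in KO2. The ligands held 0.890% of that sum in KO1 and 1.27% in KO2, while beta-catenin alone held 51.8% in KO1 and 46.6% in KO2. The median level of the detected members was 4.65 CPM per kb, beside 5.85 CPM per kb over 12148 detected protein-coding genes.

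**Figure D1:**
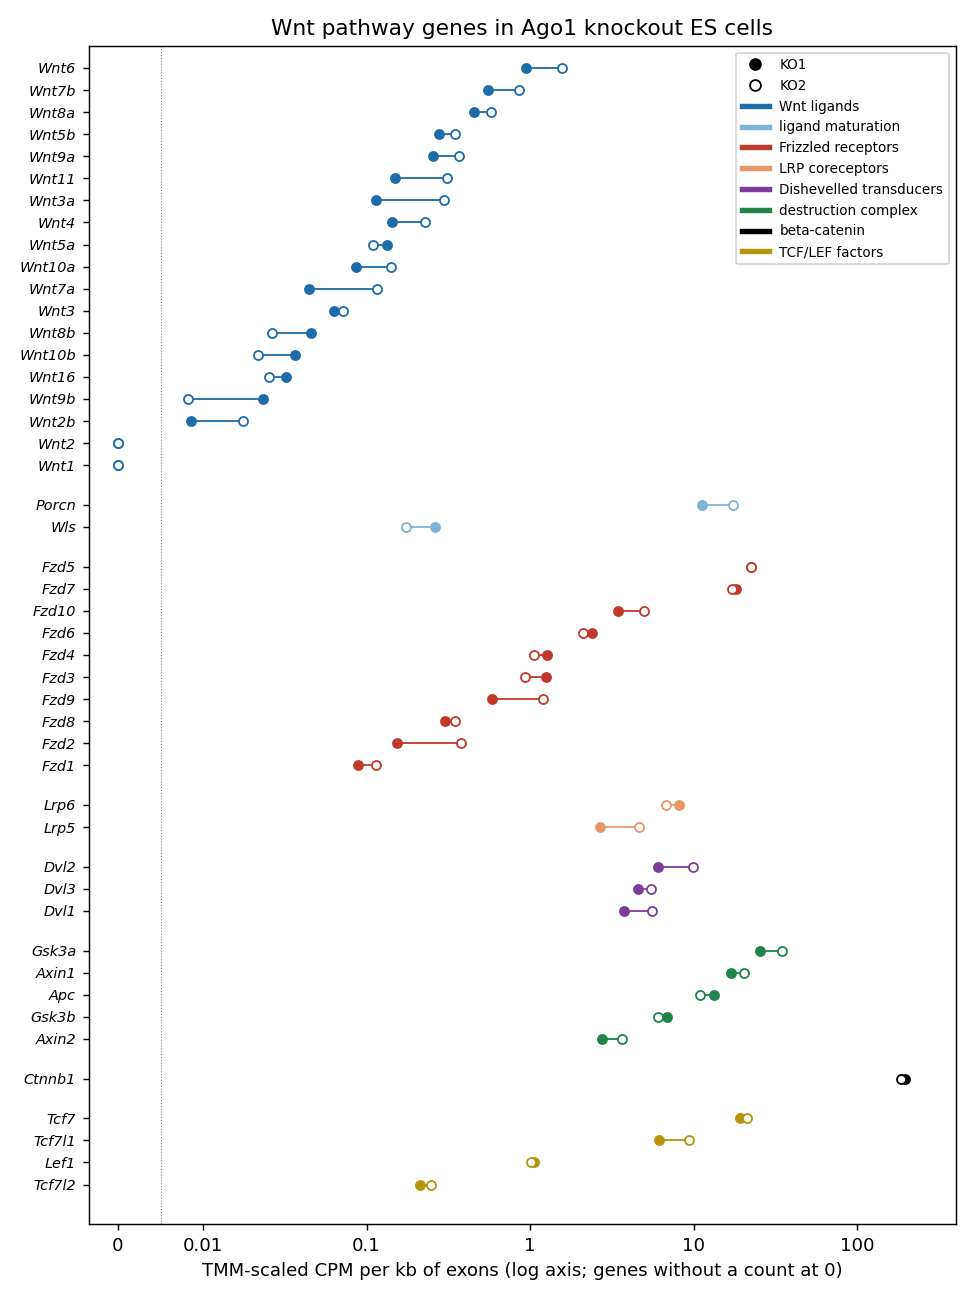
Level of each of the 46 genes in TMM-scaled CPM per kb of exonic length, by class, on a log axis with 0 set apart, with a filled point for KO1 and an open point for KO2. Most ligands lie below 0.5, whereas Ctnnb1 lies at 196 in KO1 and 186 in KO2.

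Promoter sequences are shown for a ligand with reads, the 2 ligands with none and the receptor with the highest measured level. They carry the contrast between level and promoter composition described further on. Each runs 5′ to 3′ on the gene's strand from 250 bases before to 50 bases after the start in RefSeq (build GRCm38.p6), with CpG dinucleotides in capitals. The windows are chr1:74771642-74771941, plus strand, for Wnt6; chr15:98789607-98789906, plus strand, for Wnt1; chr6:18030396-18030695, minus strand, for Wnt2; and chr1:64737701-64738000, minus strand, for Fzd5.
Wnt6: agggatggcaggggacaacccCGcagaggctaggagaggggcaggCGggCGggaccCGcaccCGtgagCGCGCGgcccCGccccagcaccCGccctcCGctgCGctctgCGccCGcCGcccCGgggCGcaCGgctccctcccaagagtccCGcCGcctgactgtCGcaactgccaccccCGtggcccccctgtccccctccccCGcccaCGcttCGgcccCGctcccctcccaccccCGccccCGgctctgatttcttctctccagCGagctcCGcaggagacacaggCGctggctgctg
Wnt1: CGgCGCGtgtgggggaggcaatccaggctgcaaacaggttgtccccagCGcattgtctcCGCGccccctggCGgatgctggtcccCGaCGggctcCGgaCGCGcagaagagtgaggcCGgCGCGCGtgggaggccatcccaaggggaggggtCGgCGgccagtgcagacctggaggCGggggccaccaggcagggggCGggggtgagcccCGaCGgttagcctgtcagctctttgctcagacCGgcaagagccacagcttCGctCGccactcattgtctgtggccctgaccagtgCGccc
Wnt2: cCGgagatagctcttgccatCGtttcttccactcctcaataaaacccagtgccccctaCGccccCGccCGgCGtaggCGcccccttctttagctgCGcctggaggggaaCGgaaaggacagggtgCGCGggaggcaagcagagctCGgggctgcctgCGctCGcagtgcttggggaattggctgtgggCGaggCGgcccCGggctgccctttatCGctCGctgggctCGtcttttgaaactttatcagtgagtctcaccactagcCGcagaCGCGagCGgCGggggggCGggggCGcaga
Fzd5: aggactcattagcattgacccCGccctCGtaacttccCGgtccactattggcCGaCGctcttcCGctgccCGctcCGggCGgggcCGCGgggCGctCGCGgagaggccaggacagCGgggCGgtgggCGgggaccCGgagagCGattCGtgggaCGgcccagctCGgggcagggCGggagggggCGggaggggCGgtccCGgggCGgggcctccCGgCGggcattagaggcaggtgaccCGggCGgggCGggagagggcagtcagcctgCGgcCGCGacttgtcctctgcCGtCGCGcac

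Wnt6 and Wnt7b were the 2 ligands detected by the rule. Wnt6, known from ectoderm and kidney development, had 118 counts in KO1 and 188 in KO2, or 0.948 and 1.57 CPM per kb. Wnt7b, which acts in lung and placenta development, had 153 counts in KO1 and 228 in KO2, or 0.550 and 0.852 CPM per kb. Per length, both libraries of Wnt6 lay above both libraries of Wnt7b. The mean was 1.26 ± 0.440 CPM per kb for Wnt6 and 0.701 ± 0.214 CPM per kb for Wnt7b (SD, n = 2). By CPM without length the order turned, with Wnt7b at 3.43 ± 1.05 CPM and Wnt6 at 2.76 ± 0.964 CPM. Both were low among detected protein-coding genes: 18.3% of these had a lower level per kb than Wnt6, and 10.5% a lower level than Wnt7b.

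Wnt6 held 28.2% of the summed ligand level in KO1 and 30.9% in KO2. Together with Wnt7b and Wnt8a it held 58.0% in KO1 and 59.0% in KO2. Wnt8a, a ligand of the early embryo's posterior axis, had 0.454 CPM per kb in KO1 and 0.577 CPM per kb in KO2. Its CPM was 0.792 in KO1 and 1.01 in KO2, so it missed the detection rule in 1 library. Wnt5a, Wnt9a and Wnt11 likewise passed 1 CPM in 1 library and not in the other. In all, 3 ligands passed in KO1 and 5 in KO2, so a count of ligands present depends on the library as well as on the rule.

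Wnt3 and Wnt3a were below the detection rule in both libraries. Wnt3, which the mouse embryo needs to form a primitive streak, had 11 counts in KO1 and 12 in KO2, or 0.0629 and 0.0714 CPM per kb. Wnt3a, needed for axis elongation and often added to ES cell cultures, had 18 counts in KO1 and 45 in KO2, or 0.115 and 0.298 CPM per kb. Its KO1 over KO2 log2 ratio was -1.35 (95% interval -2.25 to -0.56). Of 6 primitive streak and mesoderm markers, only Eomes was detected, and their summed level was 6.76 CPM in KO1 and 7.08 CPM in KO2.

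Wnt5a and Wnt11, known for signalling that does not run through beta-catenin, had few reads as well. Wnt5a counts numbered 59 in KO1 and 47 in KO2, and those of Wnt11 numbered 35 in KO1 and 70 in KO2. Their levels averaged 0.121 ± 0.0161 and 0.229 ± 0.114 CPM per kb (SD, n = 2). Wnt5b at 0.312 ± 0.0469, Wnt9a at 0.311 ± 0.0810 and Wnt4 at 0.185 ± 0.0596 CPM per kb completed the ligands that reached 50 counts over both libraries. A further 8 ligands had a summed count between 1 and 49. They ran from Wnt10a at 0.113 CPM per kb down to Wnt2b at 0.0129 CPM per kb. Wnt1, which patterns the midbrain, and Wnt2, known from lung and placenta, had 0 counts in both libraries.

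The order of the ligands was only partly resolved. Of 18 pairs of neighbours in the order by mean level per kb, 12 had overlapping ranges over the 2 libraries. Neighbours that stood apart included Wnt6 above Wnt7b, Wnt8a above Wnt5b and Wnt4 above Wnt5a. The other 3 were pairs of low genes, Wnt3 above Wnt8b, Wnt16 above Wnt9b and Wnt2b above Wnt2. Such ranges leave out counting error, and with it the order within these 3 low pairs was not resolved. The 95% counting limits in KO1 overlapped for Wnt3 (0.0967 to 0.346 CPM) and Wnt8b (0.0724 to 0.301 CPM). Those of Wnt16 (0.0608 to 0.277 CPM) and Wnt9b (0.0388 to 0.230 CPM) overlapped as well. Wnt2b, at 0.0352 CPM in KO1, lay under the 0.0528 CPM that a count of 0 allows there. Divided by exonic length, the KO1 counting limits of Wnt8a and Wnt5b overlapped too, as did those of Wnt4 and Wnt5a. The order within these pairs was therefore not resolved either.

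Several Wnt genes lie side by side in the genome, and neighbours did not share a level in every case. Wnt6 (chromosome 1) lies 6.19 kb from Wnt10a, and their levels were 1.26 and 0.113 CPM per kb. Wnt3a and Wnt9a (chromosome 11), 16.2 kb apart, had 0.207 and 0.311 CPM per kb. Wnt3 and Wnt9b (chromosome 11), 24.3 kb apart, had 0.0672 and 0.0157 CPM per kb. Wnt1 and Wnt10b (chromosome 15), 11.7 kb apart, had 0 and 0.0289 CPM per kb.

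Most ligands below detection that had a promoter entry had CpG-rich promoters. Whether promoter CpG content bears on the levels was not tested. Of the 46 genes, 33 had an entry in the RefSeq promoter table, and each was described by its window with most CpG dinucleotides. The 14 ligands below detection with an entry had a median of 35.5 CpG in 300 bases, and 18 detected members had a median of 31.5. The median was 15 over 17492 protein-coding genes and 8 over all 27025 genes with a window. A ratio of observed to expected CpG of at least 0.6 was found in 11 of the 14 ligands below detection (78.6%), in 17 of the 18 detected members (94.4%) and in 50.7% of protein-coding genes. The ligands under this ratio were Wnt10b at 0.559, Wnt16 at 0.402 and Wnt8b at 0.345, and the detected member under it was Wls at 0.460. Among the sequences printed above, Wnt6 had 31 CpG, Wnt1 had 26, Wnt2 had 27 and Fzd5 had 38. Wnt1 and Wnt2 were thus CpG-rich with 0 counts, whereas Wls was detected with 11 CpG. Per kb, however, Wls at 0.219 CPM lay below Wnt5b at 0.312 and Wnt9a at 0.311 CPM, ligands below detection with 47 and 58 CpG.

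**Figure D2:**
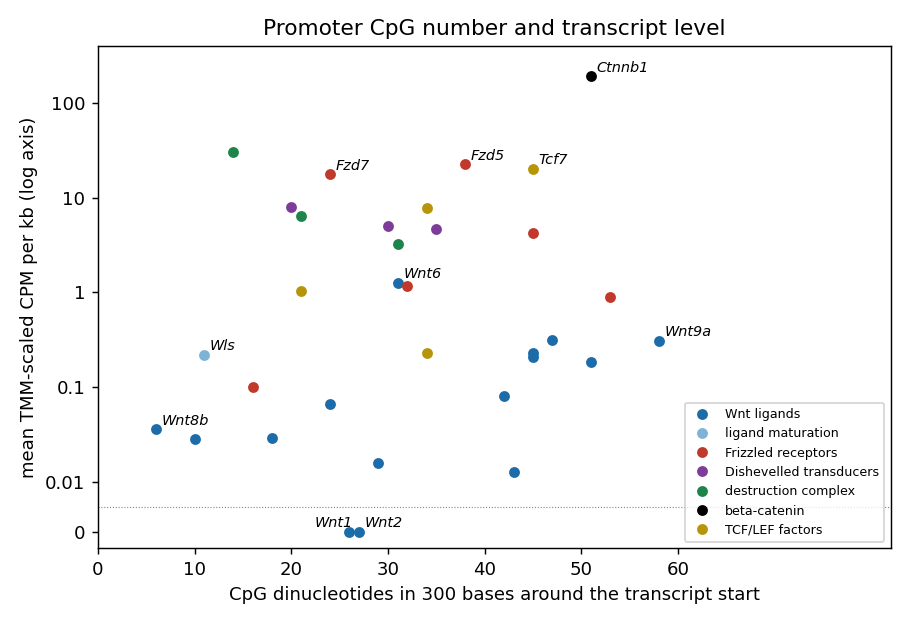
Number of CpG dinucleotides in the 300 bases around the transcript start (x axis) against the mean level in TMM-scaled CPM per kb on a log axis (y axis), with a point for each of the 33 genes with a RefSeq promoter entry, coloured by class. Ligands spread from 6 to 58 CpG at low levels, and Wnt1 and Wnt2 lie at 0 with 26 and 27 CpG.

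A match to the TCF/LEF core motif CTTTGAT, searched on both strands, was held by 2 of the 33 members (6.06%), Wnt5b and Wnt11. The share over all 27025 genes with a window was 4.29%. A match is a description of the letters and not a site of binding.

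The 2 genes that act on ligands before secretion differed widely. Porcn, the acyltransferase that attaches the lipid to Wnt proteins, had 11.3 CPM per kb in KO1 and 17.4 CPM per kb in KO2. Wls, which carries the lipid-bearing Wnt to the cell surface, had 0.262 CPM per kb in KO1 and 0.175 CPM per kb in KO2. The libraries of the 2 genes did not overlap, and Porcn exceeded Wls by 42.9-fold in KO1 and 99.4-fold in KO2. Of the detected protein-coding genes, 71.8% had a lower level per kb than Porcn, and 1.56% a lower level than Wls.

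Fzd5 and Fzd7 made up most of the receptor transcripts. Frizzleds are multi-pass membrane receptors that bind Wnt through a cysteine-rich outer domain. Fzd5 had 8809 counts in KO1 and 8519 in KO2, or 22.4 and 22.5 CPM per kb. Fzd7, a receptor studied in ES cell self-renewal, had 4664 counts in KO1 and 4260 in KO2, or 18.1 and 17.2 CPM per kb. Both libraries of Fzd5 lay above both libraries of Fzd7, by a ratio of 1.24 in KO1 and 1.31 in KO2. Together they held 81.0% of the summed Frizzled level in KO1 and 78.2% in KO2. Of the 50-base stretches of Fzd5 exons, 16.4% also occur in other annotated genes, while Fzd7 had none. Of the exonic bases of Fzd5, 17.8% lie under a gene on the opposite strand, against 0% for Fzd7. The level of Fzd5, and so its share and its place above Fzd7, is therefore uncertain.

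The next receptors were well below. Fzd10 had 3.45 CPM per kb in KO1 and 4.97 CPM per kb in KO2, and Fzd6 had 2.39 in KO1 and 2.12 in KO2. Fzd4, best known from retinal vessel growth, averaged 1.16 ± 0.153, Fzd3, known from axon guidance, 1.09 ± 0.223, and Fzd9 0.890 ± 0.434 CPM per kb (SD, n = 2). The ranges of Fzd4 and Fzd3 overlapped, as did those of Fzd3 and Fzd9. Fzd8 was detected at 0.323 ± 0.0323 CPM per kb. Fzd1 and Fzd2 were the only receptors below the detection rule. Fzd1 counts numbered 21 in KO1 and 26 in KO2, and those of Fzd2 numbered 32 in KO1 and 76 in KO2.

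Of the coreceptors, Lrp6 exceeded Lrp5 in both libraries, by an amount that differed between them. Both are single-pass proteins whose inner tails bind Axin after phosphorylation. Lrp6 had 8.15 CPM per kb in KO1 and 6.73 CPM per kb in KO2. Lrp5 had 2.68 CPM per kb in KO1 and 4.62 CPM per kb in KO2. The ratio of Lrp6 to Lrp5 was 3.04 in KO1 and 1.46 in KO2. The order was the same in both libraries, but the share of Lrp6, 67.3 ± 11.3% (SD, n = 2), had a wide spread.

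All 3 Dishevelled genes, whose proteins polymerise at the activated receptor, were detected within a narrow range. Dvl2 was highest, with 6.09 CPM per kb in KO1 and 9.88 CPM per kb in KO2. Dvl3 had 4.54 CPM per kb in KO1 and 5.49 CPM per kb in KO2. Dvl1 had 3.76 CPM per kb in KO1 and 5.54 CPM per kb in KO2. The ranges of Dvl3 and Dvl1 overlapped, so these 2 were not separated, whereas Dvl2 lay above both. Of the exonic bases of Dvl2, 18.3% lie under a gene on the opposite strand, against 0.721% for Dvl1 and 0% for Dvl3. The level of Dvl2, and so its place above both, is therefore uncertain.

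In the destruction complex all 5 genes were detected, and none of the 4 neighbouring pairs overlapped between libraries. Gsk3a, a kinase that phosphorylates beta-catenin, had 25.5 CPM per kb in KO1 and 34.95 CPM per kb in KO2. Its paralogue Gsk3b had 6.86 CPM per kb in KO1 and 6.09 CPM per kb in KO2. Gsk3a thus exceeded Gsk3b by 3.71-fold in KO1 and 5.74-fold in KO2. Gsk3a also had the largest overlap with other genes of the list: 28.3% of its exonic bases lie under a gene on the opposite strand and 25.7% of its 50-base stretches occur in another gene, 9130221H12Rik among them. Its level is therefore uncertain, since the sources used here do not give the strand setting of the counting.

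The scaffolds differed likewise. Axin1, the constitutive scaffold, had 16.8 CPM per kb in KO1 and 20.2 CPM per kb in KO2. Axin2, its paralogue and a widely used Wnt target gene, had 2.76 CPM per kb in KO1 and 3.67 CPM per kb in KO2. Axin1 was 6.09-fold above Axin2 in KO1 and 5.52-fold in KO2. Apc, the tumour suppressor that holds beta-catenin in the complex, had 13.3 CPM per kb in KO1 and 10.9 CPM per kb in KO2.

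Ctnnb1, the gene of beta-catenin, was the highest of the 46 by a wide margin. Besides acting in the nucleus, its protein links cadherins to the cytoskeleton. It had 57723 counts in KO1 and 52901 in KO2, or 196 and 186 CPM per kb. Of the detected protein-coding genes, 98.4% had a lower level per kb. It was 7.68-fold above Gsk3a, the next highest member, in KO1 and 5.34-fold in KO2. Of its exonic bases, 14.6% lie under a gene on the opposite strand, Ulk4 among those sharing its sequence.

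The 4 TCF/LEF genes fell into a clear order with no overlap between neighbours. Tcf7, mainly an activator when bound by beta-catenin, had 19.2 CPM per kb in KO1 and 21.3 CPM per kb in KO2. Tcf7l1, known mainly as a repressor of pluripotency genes in ES cells, had 6.16 CPM per kb in KO1 and 9.41 CPM per kb in KO2. Both libraries of Tcf7 lay above both of Tcf7l1, by a ratio of 3.11 in KO1 and 2.26 in KO2. Lef1 had 1.05 CPM per kb in KO1 and 1.02 CPM per kb in KO2, with 13.7% of its exonic bases under a gene on the opposite strand. Tcf7l2, the main TCF of intestinal stem cells, had 0.213 CPM per kb in KO1 and 0.248 CPM per kb in KO2. Tcf7l1 held 23.1% of the summed TCF/LEF level in KO1 and 29.5% in KO2, and Tcf7 held 72.1% in KO1 and 66.6% in KO2. These shares are of transcripts and not of protein.

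Each library was then set against the other, to show how closely the levels were repeated. With both libraries added, 35 of the 46 genes reached 50 counts. None of them had a KO1 over KO2 ratio whose 95% interval lay wholly beyond 2-fold, against 1.06% of 15619 genes at the same minimum. With a limit of 1.5-fold there were 4 of the 35, Fzd2, Fzd9, Lrp5 and Dvl2, all higher in KO2, against 6.6% of all genes. Fzd9 had 1.34 CPM in KO1 and 2.75 CPM in KO2, a log2 ratio of -1.03 (95% interval -1.45 to -0.63), and after the correction for GC content its ratio was -0.10 (95% interval -0.52 to 0.31). Lrp5 had 26.1 CPM in KO1 and 45.0 CPM in KO2, a log2 ratio of -0.79 (95% interval -0.88 to -0.69), and a corrected ratio of -0.44 (95% interval -0.53 to -0.34). For none of the 4 did the corrected interval lie wholly beyond 1.5-fold. The corrected ratio of Fzd2 itself was -0.78 (95% interval -1.44 to -0.18).

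The members did not scatter evenly between the libraries. Their median log2 ratio of KO1 over KO2 was -0.31, beside -0.01 over all 15619 genes. The interval lay above 0 for 9 of the 35 members, against 31.2% of all genes, and below 0 for 18, against 34.3% of all genes. Among the 9 ligands with at least 50 counts, 8 were higher in KO2, against 7965 of all 15619 genes. The median log2 ratio of these 9 ligands was -0.63.

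**Figure D3:**
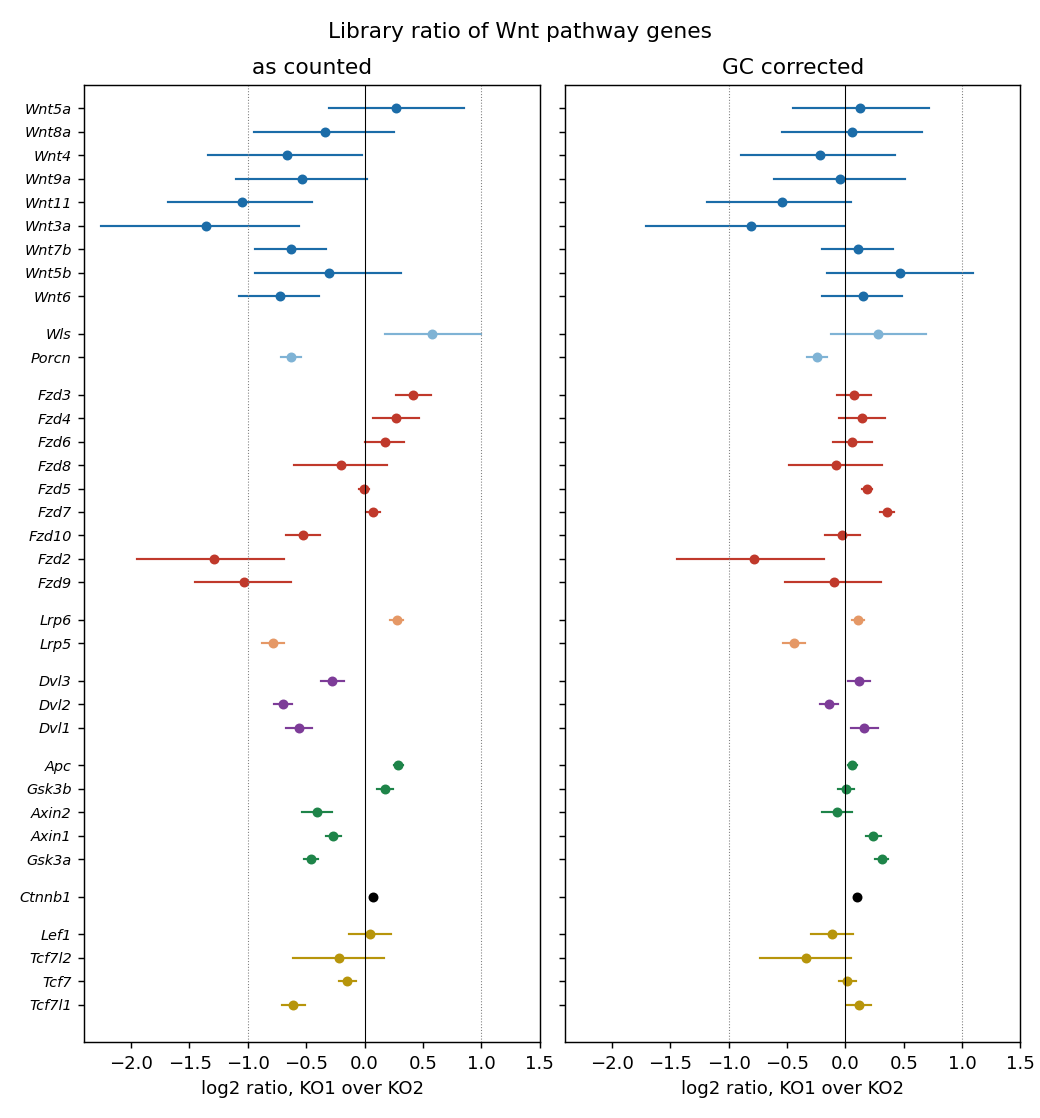
Log2 ratio of KO1 over KO2 for each of the 35 genes that reached 50 counts over both libraries, with its 95% interval for counting error, as measured (left) and after correction for GC content (right), coloured by class, with dotted lines at 2-fold. The measured ratios have a median of -0.31 and the corrected ratios a median of 0.06.

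GC content moved with these ratios. Across the 35 genes, which share both libraries and their depth, the correlation between the GC content of the longest transcript and the log2 ratio was -0.816 (Pearson) and -0.832 (Spearman). Across 15603 genes it was -0.753 (Pearson) and -0.811 (Spearman). Members with a GC content of at least 50% numbered 25, and 23 of these were higher in KO2. Of the 10 members below 50%, 9 were higher in KO1, and the exception was Tcf7l2. The median GC content was 55.2% over the members and 48.7% over protein-coding genes. Over the 19 ligands it was 56.4%, and all genes from 56% to 58% GC that reached 50 counts had a median log2 ratio of -0.54.

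After a loess correction for GC content over all genes, the members' median log2 ratio was 0.06, beside 0.01 over all genes. The corrected interval lay above 0 for 10 of the 35 members, against 20.4% of all genes. It lay below 0 for 5, against 19.8% of all genes, and for 20 it held 0. None lay beyond 2-fold after correction, against 0.263% of all genes. The 9 ligands had a corrected median of 0.06. The sign of the ratio turned in 12 of the 35 members. The matching share is not given here for all genes, whose ratios also moved with GC content. Wnt6 went to 0.15 (95% interval -0.20 to 0.49) after correction, against -0.73 (95% interval -1.07 to -0.39) as measured. The members below 0 after correction were Wnt3a, Fzd2, Porcn, Lrp5 and Dvl2, and among them Fzd2 stood at -0.78 (95% interval -1.44 to -0.18).

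**Figure D4:**
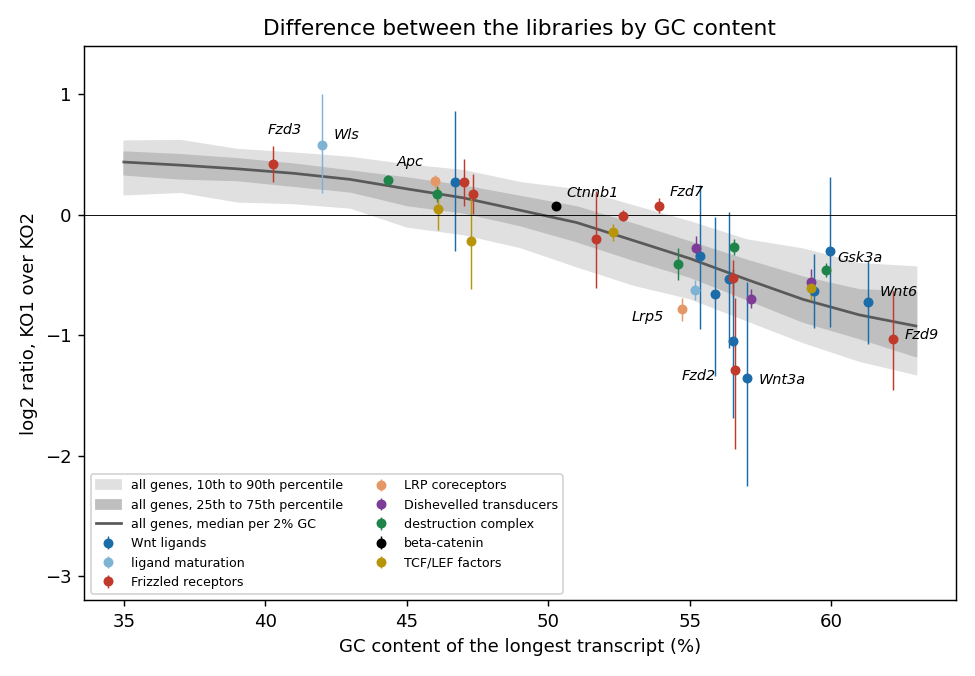
GC content of the longest transcript in percent (x axis) against the log2 ratio of KO1 over KO2 (y axis), with the 35 members as points coloured by class (bars, 95% interval) over a grey line for the median of all genes that reached 50 counts and grey bands for their percentiles. The members fall with GC content as all genes do, 23 of the 25 with at least 50% GC lying below 0.

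Ago1 acts with microRNAs, and the members' 3′ UTRs were searched for the site of the most abundant microRNA family known in mouse ES cells. Its members share the seed at bases 2 to 8, in capitals in these mature sequences from RefSeq (build GRCm38.p6).
miR-291a-3p: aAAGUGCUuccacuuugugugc
miR-294-3p: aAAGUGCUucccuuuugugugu
miR-295-3p: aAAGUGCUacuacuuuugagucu
miR-302b-3p: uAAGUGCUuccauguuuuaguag
miR-302d-3p: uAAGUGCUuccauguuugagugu

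A match to the seed, AGCACTT on the transcript strand, stood in the 3′ UTR of 11 of the 46 genes (23.9%), at 13 sites. The share over 21002 protein-coding genes was 14.7%. The members' 3′ UTRs are also longer, with a median of 1697 bases against 961 bases, and per kb the sites numbered 0.133 in the members and 0.121 in protein-coding genes. Among detected genes, the density was 0.129 per kb in 27 members and 0.133 per kb in 12083 protein-coding genes. Sites of the detected members are shown with the match in capitals, read from GENCODE M21 transcripts.
Wnt7b: cctcctctggaggggAGCACTTagccccaa
Fzd3, upstream site: aatcgtgtcagcagaAGCACTTactatgaa
Fzd3, downstream site: gtaaatgtttttcttAGCACTTtaactgtg
Fzd10: catgagtggtcttgaAGCACTTgggaagac
Gsk3b: tgcgcgggaaagaccAGCACTTacttgagt
Tcf7: tgcacctataaccccAGCACTTgcgagata
Lef1: tcctgtaaaaagcccAGCACTTgaattgtt

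Fzd8 was the other detected gene with a site. The remaining genes with a site were the ligands Wnt7a, Wnt8b, Wnt9a and Wnt9b. The 8 genes with a site and at least 50 counts had a median GC-corrected log2 ratio of -0.01, and the 27 without had 0.10. The medians over all genes were 0.01 with a site and 0.01 without. A seed match is a description of the letters, and no library with Ago1 intact was used here.

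Other genes of the pathway, from lists of known Wnt components and targets, were described in the same way. Of 71 such genes that are not among the 46, 51 (71.8%) were detected. Of 13 secreted antagonists, 6 were detected. Notum, which removes the lipid from Wnt, had 7.74 CPM per kb in KO1 and 13.1 CPM per kb in KO2. Sfrp1, a soluble Wnt-binding protein, had 9.42 CPM per kb in KO1 and 8.77 CPM per kb in KO2. These were the 2 highest by mean, and their order turned between the libraries. The level of Notum is uncertain, since 38.1% of its exonic bases lie under a gene on the opposite strand. Dkk2 was at 0 in both libraries. Both libraries of Sfrp1 lay above both libraries of Wnt6, the highest ligand per kb.

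Of 9 genes of the R-spondin axis, which controls how many Frizzleds stay on the surface, 4 were detected. Lgr4, an R-spondin receptor, had 22.4 ± 3.36 CPM per kb, close to the level of Fzd5. Znrf3, a ligase that removes Frizzleds, had 2.99 ± 0.351 CPM per kb. The lowest were Rspo2 at 0.00875 and Lgr5 at 0.0148 CPM per kb. Among 11 alternative receptors and polarity genes 10 were detected, with Ryk at 15.6 ± 0.320 and Ptk7 at 15.0 ± 6.42 CPM per kb highest.

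Of 15 genes of beta-catenin turnover 14 were detected. Skp1a, a subunit of the ubiquitin ligase, had 177 ± 31.1 CPM per kb, and the kinase Csnk1a1 had 49.1 ± 7.77 CPM per kb. Of 15 nuclear cofactors 14 were detected, with the corepressors Ctbp2 at 45.7 ± 5.26 and Tle4 at 38.1 ± 0.0948 CPM per kb highest. Bcl9l, which bridges beta-catenin to Pygo proteins, was the only one of these pathway genes with an interval wholly beyond 2-fold between the libraries. It had 5.35 CPM in KO1 and 13.0 CPM in KO2, a log2 ratio of -1.28 (95% interval -1.48 to -1.09), and at 60.1% GC its corrected ratio of -0.50 (95% interval -0.70 to -0.31) was no longer beyond 2-fold.

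Of 16 commonly used target genes 9 were detected. Myc had 32.1 ± 7.54 and Ccnd1 31.0 ± 2.60 CPM per kb, both of which many other pathways control, and 23.4% of the exonic bases of Ccnd1 lie under a gene on the opposite strand. Lgr5 at 0.0148 and Sp8 at 0.0593 CPM per kb were lowest. Among target genes that are also members, Tcf7 was at 20.2 ± 1.47, Axin2 at 3.22 ± 0.642 and Lef1 at 1.04 ± 0.0248 CPM per kb. Without a library of unedited cells, no level here can be read as signalling that is raised or lowered by the loss of Ago1.

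**Figure D5:**
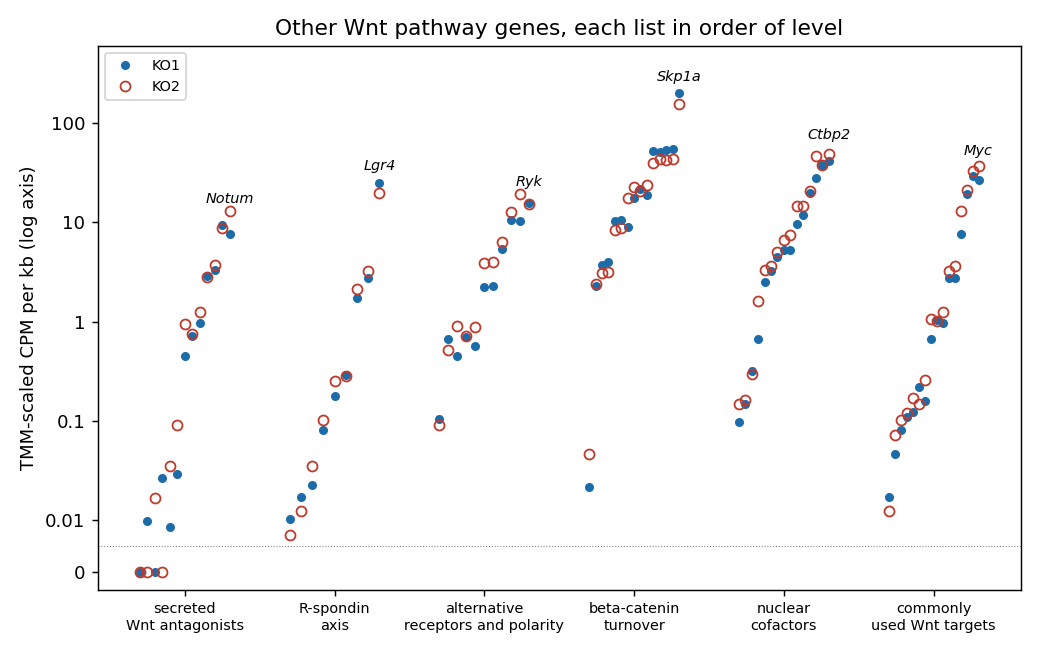
Level of each gene of the 6 other pathway lists in TMM-scaled CPM per kb, on a log axis with 0 set apart, with a filled point for KO1 and an open point for KO2 and each list in order of level. Of the secreted antagonists 6 of 13 were detected and spread over high and low levels, and beta-catenin turnover reaches highest, with Skp1a at 177 CPM per kb.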

How the data were processed

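The deposited values were whole-number counts of reads per gene for both libraries, with no normalization. GRCm38 is the only build named, per the submitters' processing notes, and the libraries were polyadenylated and reverse-stranded, per the labels. The sources used here name no aligner, counting program, strand setting or annotation release, nor the treatment of reads shared between genes. Of the 46 genes, 26 have no 50-base stretch in another gene and 5 have at least 10% of such stretches elsewhere. Of the 55421 identifiers, 55240 were found in GENCODE M21, and the other 181 held 0.00416% of the counts.

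CPM values were computed with edgeR 4.0.16 in R 4.3.3 (TMM factors 0.996 for KO1, 1.00 for KO2) and divided by the union of exons in kb. Detection meant 1 CPM or more in each library. KO1 over KO2 ratios carry an exact conditional binomial interval at 95%, for genes reaching 50 counts over both libraries. Ratios were also corrected by loess on GC content (span 0.3). With 1 group no test was made and no p-value is given. The scripts were tested on simulated data. Alternatives were library scaling (total counts, DESeq2 1.42.0 size factors), each library alone, thresholds, gene length and GC correction.

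All 46 genes could be named. Of the other pathway lists, the 2 highest and 2 lowest genes by mean CPM per kb and those beyond 2-fold between libraries were eligible, and of the cell type markers the highest, the lowest and those at 0. The members and lists were chosen with earlier results of these data known. Eomes was named after its value was seen.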

Additional observations from a re-analysis of the deposited data

How the results depend on the processing

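The number of detected members, 27, was also 27 under total-count and DESeq2 scaling. The DESeq2 size factors were 1 for both libraries, so that alternative left the counts unscaled between them. The number ran from 28 to 31 with each library alone, and was 34 at 0.5 CPM, 23 at 2 CPM and 24 at 0.5 CPM per kb. Without scaling to length, the shares moved most: Tcf7l1 held 31.9% of the TCF/LEF level (26.3% with it), Fzd5 54.1% of the Frizzled level (44.6%) and Wnt6 20.3% of the ligand level (29.5%). With each library alone these shares ran from 23.1% to 29.5%, from 44.3% to 44.8% and from 28.2% to 30.9%. The members' median log2 ratio of -0.31 became 0.060 with GC correction and stayed between -0.32 and -0.22 under the other alternatives. The count of members differing between the libraries, 0, was 4 at 1.5-fold and 27 at 1-fold, and 0 under the other scalings and count minimums. Of the 27, 9 had intervals above 0 and 18 below 0, beside 31.2% and 34.3% of all genes. GC correction moved the ratio of 22 members beyond their intervals and DESeq2 scaling that of 4. The matching shares over all genes are not given here. No paired analysis was possible because there was 1 group.

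Limits: 1 group of 2 libraries gives no test of the knockout, and levels of ligands with under 50 counts rest on few reads. The common biological coefficient of variation between the libraries was 0.193 (edgeR), and the square root of the median DESeq2 dispersion was 0.196. GC content, and any other difference between KO1 and KO2 that moves with it, cannot be told apart.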

Other observations

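Markers of other cell types were described for the same libraries. Of 7 primitive endoderm markers 6 were detected. Dab2 was highest at 7.63 CPM per kb, and Foxa2, which was not detected, was lowest at 0.369 CPM per kb. The summed level of the 7 markers was 89.1 CPM in KO1 and 95.3 CPM in KO2. Of 6 neural markers 3 were detected, Tubb3 being highest at 18.4 CPM per kb, with a sum of 40.0 CPM in KO1 and 61.0 CPM in KO2. The fibroblast markers summed to 21.2 CPM in KO1 and 25.4 CPM in KO2, and the ES cell markers to 3075 CPM in KO1 and 3512 CPM in KO2. The part of these cell types in the levels of the Wnt genes was not tested.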
